A study of Mus musculus with 15 samples.

Results

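The comparison described here is ruxolitinib alone against vehicle in LSK cells that carry both Jak2 V617F and Idh2 R140Q. Its members are 6 of the 15 libraries of the series: the 3 whose labels name ruxolitinib (A14, A16 and A17) and the 3 whose labels name vehicle (A1, A3 and A4). LSK cells are the lineage-negative, Sca-1-positive, Kit-positive fraction of bone marrow that holds blood stem cells and early progenitors. Expression was measured by RNA sequencing of sorted donor (CD45.2+) LSK cells after SMARTer amplification.

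All 6 libraries came from recipients of the same kind of graft. Donor mice on the C57BL/6 background carried conditional Jak2 V617F and Idh2 R140Q alleles that Mx1-Cre switches on in blood cells and other interferon-responsive cells after injection of polyI:polyC, which itself induces interferon. Their marrow was mixed with an equal share of CD45.1 wild-type marrow and given to irradiated hosts, and treatment began once the hosts had disease, so the sorted cells had developed beside wild-type cells. Male and female mice in the study were 6 months to 1.5 years old, and the age of each recipient was not given in the sources used here. Ruxolitinib, a JAK1 and JAK2 kinase inhibitor, was given at 60 mg/kg by mouth, 2 times a day over 21 to 28 days, with the last dose about 1.5 h before sacrifice, and vehicle mice received no drug. The labels do not say whether a library is 1 mouse or a pool, so p-values measure the spread between these libraries only. The other 9 libraries, 3 each of AG221 (an inhibitor of mutant IDH2, 40 mg/kg), of both drugs and of wild-type cells (WT), shared the estimate of spread, and AG221 and combined libraries gave a second measure of ruxolitinib.

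Cytokine receptors without kinase activity of their own signal through JAK kinases, which phosphorylate STAT transcription factors. JAK2 serves the erythropoietin, thrombopoietin and GM-CSF receptors, mainly through STAT5, and V617F makes it active without ligand. JAK1 with TYK2 serves the type I interferon receptor, which acts through STAT factors and IRF9 on interferon-stimulated response elements, and JAK1 with JAK2 serves the interferon-gamma receptor, which acts through STAT dimers on gamma-activated sites. Targets of STAT5 in blood cells include its own inhibitor Cish, while interferon targets include antiviral enzymes, GTPases of the immunity-related family and the genes of antigen presentation.

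Total counts per library ran from 27433630 to 32174287 with vehicle and were 22004150 (A14), 24555096 (A16) and 27743702 (A17) with ruxolitinib. Of 45232 gene IDs, 17834 passed the filter on low counts and were tested, and 3 counts in a library correspond to 0.0957 to 0.141 CPM (counts scaled to library size) over the 6 libraries. Kit, which defines the gate, was at 1130, 1370 and 859 CPM in A1, A3 and A4 and at 1120, 1402 and 1306 CPM in A14, A16 and A17. Ly6a, which encodes Sca-1, was detected in all 6 libraries but ranged from 13.1 CPM in A4 to 166 CPM in A1. Mpo, a granule gene of myeloid progenitors and neutrophils, exceeded Kit in every library, at 5191 to 12141 CPM. The root-mean-square difference in log2 CPM over the tested genes was 0.684 between A14 and A17 but 0.926 between A14 and A16 and 0.900 between A16 and A17, against 0.752 to 0.887 among the vehicle libraries. A16 thus lay farther from the other ruxolitinib libraries than any vehicle library lay from another with a prior count of 2, but with a prior count of 0.5 the distance from A14 to A16 (1.10) was below that from A3 to A4 (1.12). Values without A16 are given beside the results it touches. Over the 500 most variable genes among the 6 libraries A16 was not apart, with 2.19 to A14 and 2.31 to A17 against 2.28 between A14 and A17. A17 was as close to the vehicle libraries (0.658 to 0.752) as to A14, so the groups did not separate by overall distance.

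With ruxolitinib 3 genes were lower and 0 higher than with vehicle at an adjusted p under 0.05 (edgeR's quasi-likelihood test, Benjamini-Hochberg over all tested genes), a share of 0.0168% for lower genes. At an unadjusted p under 0.05, 395 genes (2.21%) were lower and 418 (2.34%) were higher. DESeq2 called 44 genes lower and 6 higher, and limma voom with sample quality weights called 29 lower and 0 higher. Groups did not overlap, with each ruxolitinib library below each vehicle library, for 803 genes (4.50%), and the opposite was true of 654 genes (3.67%). A fit of the 6 libraries alone called 0 genes in either direction, with an adjusted p of 1 for all 3 lower genes by edgeR's quasi-likelihood test, so the calls rest on the spread shared with the other groups. Leaving out A14, A16 or A17 also left 0 genes called lower by edgeR, and leaving out A4 gave 9.

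Irf7 (ENSMUSG00000025498, chr7:141262706-141266481, minus strand, GRCm38), the interferon regulatory factor that amplifies the type I interferon response, was at 34.4, 19.9 and 20.9 CPM in the vehicle libraries A1, A3 and A4 and at 6.41, 7.86 and 6.64 CPM in the ruxolitinib libraries A14, A16 and A17. Every ruxolitinib library was below every vehicle library, A16 included, and the fall was 3.59-fold (log2 fold change -1.84, SE 0.233, adjusted p = 0.0263 by edgeR's quasi-likelihood test). With 1 library left out at a time its log2 fold change stayed between -1.99 and -1.56 while the adjusted p ran from 0.0129 to 0.201.

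Rtp4 (ENSMUSG00000033355, chr16:23520291-23614222, plus strand), an interferon-induced transporter protein, was at 45.3, 22 and 17.2 CPM with vehicle and at 4.57, 5.47 and 6.94 CPM with ruxolitinib. The groups were well separated and the fall was 4.97-fold (log2 fold change -2.31, SE 0.316, adjusted p = 0.0263 by edgeR's quasi-likelihood test). An unnamed gene on the same strand covers 13.9% of its exon bases, so some of its reads cannot be assigned with certainty.

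Tcrg-C1 (ENSMUSG00000076749, chr13:19214103-19217024), a constant segment of the T cell receptor gamma locus, was at 11.1, 27.9 and 17.9 CPM with vehicle and at 2.21, 2.91 and 1.19 CPM with ruxolitinib. It fell 9.03-fold without overlap (log2 fold change -3.17, SE 0.424, adjusted p = 0.0263 by edgeR's quasi-likelihood test). However, 34.2% of its 50-base stretches also occur in other genes, most often Tcrg-C3, so its reads could be split between genes. Of 14 tested T and NK cell markers, 0 were lower at an unadjusted p under 0.05, and Cd3e, a chain of the T cell receptor complex, was at 0.301, 0.861 and 0 CPM with vehicle and 0.659, 1.24 and 0.0746 CPM with ruxolitinib. The summed level of those markers was 437 to 509 CPM with vehicle and 460 to 552 CPM with ruxolitinib, most of it from Nkg7, at 405 to 454 and 421 to 529 CPM.

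Of the 12 genes with the smallest p among those that were lower without overlap, the other 9 were Serpina3g, Il6, Gm4070, Tgtp2, Usp18, Iigp1, Tgtp1, Xaf1 and Irf9, with adjusted p from 0.0672 to 0.146 by edgeR's quasi-likelihood test. Serpina3g, a serine protease inhibitor induced by interferon-gamma, was the most abundant, at 1412, 1849 and 797 CPM with vehicle and at 357, 315 and 223 CPM with ruxolitinib (log2 fold change -2.18, SE 0.333). Tgtp2, an interferon-inducible GTPase, was at 207, 78.7 and 115 CPM with vehicle and at 48.3, 37.7 and 28.1 CPM with ruxolitinib. Iigp1, of the same GTPase family, was at 190, 69.9 and 38.6 CPM with vehicle and at 21.2, 19.7 and 15.3 CPM with ruxolitinib (log2 fold change -2.41; -1.55 without A1). In both GTPase genes vehicle A1 was the highest library by a wide margin, whereas the ruxolitinib libraries stayed close together. Tgtp1 and Tgtp2 share 81.2% and 86.6% of their 50-base stretches with other genes, most often each other. Gm4070 shares 97.8%, most often with Gvin1, so the split of reads among such genes is uncertain.

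Usp18, which removes ISG15 and dampens the type I interferon receptor, was at 39.4, 24.4 and 24.5 CPM with vehicle and at 12.5, 13.2 and 12.5 CPM with ruxolitinib (log2 fold change -1.21, SE 0.210). Irf9, the DNA-binding partner of STAT factors in the type I interferon response, was at 147, 95.7 and 106 CPM and at 63.5, 59.1 and 52.5 CPM (log2 fold change -1.0, SE 0.186). The ruxolitinib libraries differed little from each other in both genes, and A16 lay within or next to the range of A14 and A17. Il6, the cytokine that signals through gp130 and JAK1, was low, at 4.10, 5.93 and 5.45 CPM with vehicle and 1.27, 1.50 and 1.16 CPM with ruxolitinib (log2 fold change -1.98, SE 0.322).

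**Figure D1:**
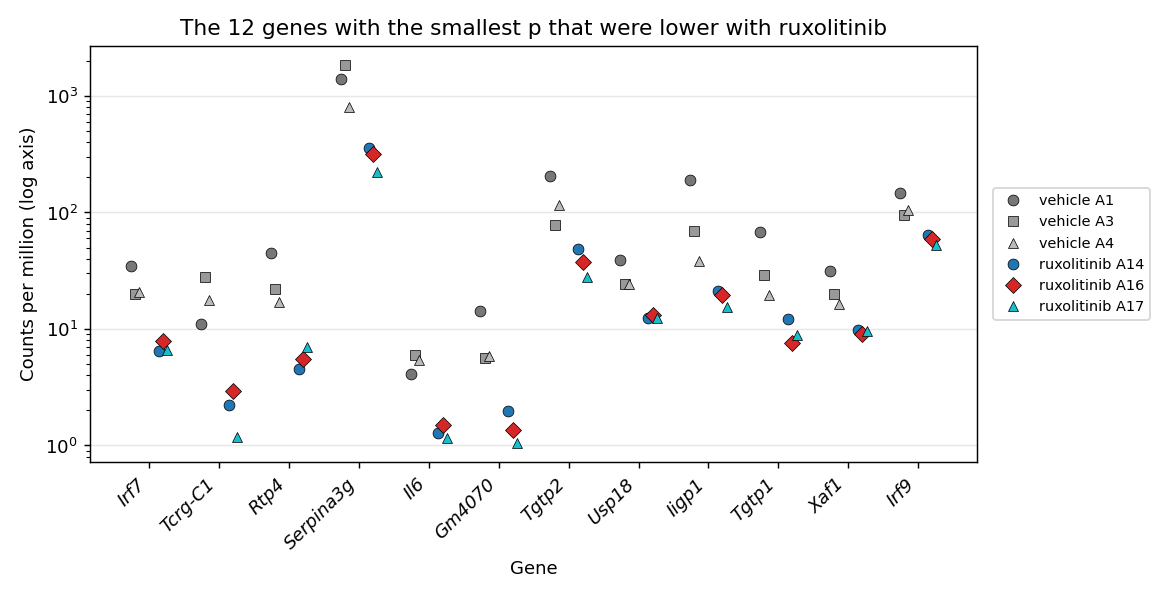
CPM (log axis) of the 12 genes with the smallest p that were lower with ruxolitinib without overlap, 1 point per library: grey for vehicle A1, A3 and A4, colour for ruxolitinib A14, A16 and A17. In each gene all 3 ruxolitinib points lie below all 3 vehicle points, as the choice of genes requires, and A16 (red diamond) lies with A14 and A17, for example 7.86 against 6.41 and 6.64 CPM in Irf7.

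Type I interferon-stimulated genes were the list with the most members lower. Of 46 tested members of 47, 33 were lower at an unadjusted p under 0.05 (2.21% of all tested genes) and 0 were higher, 2 (Irf7 and Rtp4) were called, and 27 had groups that did not overlap (4.50% of all tested genes). The median log2 fold change was -0.78, a 1.72-fold lower level, beside 0.012 over all tested genes. Without A16, 30 members were lower at that p (2.10% of all tested genes) with a median of -0.82, and without vehicle A1, in which these genes were highest, 24 were lower with a median of -0.56. With offsets for GC content per library, an alternative chosen after the data were seen, the count was 32 and the median -0.81.

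Averaged over the 46 genes, log2 CPM relative to the vehicle mean was 0.43, -0.08 and -0.36 in A1, A3 and A4 and -0.78, -0.75 and -0.80 in A14, A16 and A17. The vehicle libraries were spread over a wider range than the ruxolitinib libraries, and the groups did not overlap. In bulk RNA, fewer cells that express a gene and less RNA per cell cannot be told apart.

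Ifit1, an interferon-induced RNA-binding protein, was at 13.4, 6.13 and 5.17 CPM with vehicle and at 2.40, 1.45 and 2.65 CPM with ruxolitinib (log2 fold change -1.92, SE 0.469). Oasl2, of the oligoadenylate synthetase family that senses double-stranded RNA, was at 88.7, 56.6 and 38.0 CPM and at 27.9, 32.7 and 32.8 CPM (log2 fold change -0.97, SE 0.237; -0.62 without A1). Zbp1, a sensor of Z-form nucleic acid, was at 18.5, 6.35 and 9.95 CPM and at 3.11, 3.93 and 4.44 CPM (log2 fold change -1.59, SE 0.346). None of these overlapped between the groups, and vehicle A1 was the highest in each. Ifitm3, which blocks viral entry, was at 350.4, 235 and 227 CPM and at 169.5, 163 and 179.9 CPM (log2 fold change -0.66, SE 0.197). Mx1, a GTPase against RNA viruses, was low throughout, at 3.01, 1.40 and 1.50 CPM and at 0.706, 0.513 and 0.522 CPM (log2 fold change -1.76, SE 0.479). The ubiquitin-like Isg15 overlapped between the groups, at 9.40, 3.67 and 5.05 CPM and at 2.78, 4.06 and 2.95 CPM, with vehicle A3 below ruxolitinib A16 (log2 fold change -0.89; -0.43 without A1). The 3 members with a log2 fold change above 0 were Isg20, Ifit2 and Ifit1bl1, of which Ifit2, an inhibitor of translation, is the most abundant. Ifit2 was at 67.1, 74.8 and 49.5 CPM with vehicle and at 65.6, 81.7 and 73.6 CPM with ruxolitinib (log2 fold change 0.21, unadjusted p = 0.271 by edgeR's quasi-likelihood test).

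Interferon-gamma response genes were lower in 15 of 33 tested members at an unadjusted p under 0.05 (2.21% of all tested genes), with 0 higher and 0 called, and their median log2 fold change was -0.77. Without A16 the count was 16 and the median -0.83, and without vehicle A1 the count was 13 and the median -0.41. Relative to the vehicle mean the list stood at 0.74, -0.11 and -0.63 in A1, A3 and A4 and at -0.59, -0.72 and -1.11 in A14, A16 and A17. Here vehicle A4 lay just below ruxolitinib A14, so the groups overlapped in the list mean although 13 single members did not (4.50% of all tested genes).

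Igtp, a GTPase that acts on the vacuoles of intracellular pathogens, was at 192, 77.2 and 89.7 CPM with vehicle and at 53.6, 50.8 and 43.7 CPM with ruxolitinib (log2 fold change -1.28, SE 0.289; -0.77 without A1). Irgm1, the regulator of that family, was at 203, 109.8 and 149.8 CPM and at 85.7, 85.7 and 81.8 CPM (log2 fold change -0.87, SE 0.192). Both genes were separated between the groups. Serpina3f, a neighbour of Serpina3g, was at 76.6, 107 and 20.4 CPM and at 18.0, 8.67 and 4.48 CPM (log2 fold change -2.71, SE 0.632). Gbp2, a guanylate-binding protein, was at 94.0, 51.8 and 36.0 CPM and at 41.3, 43.5 and 42.9 CPM, with vehicle A4 the lowest library of all 6 (log2 fold change -0.51, SE 0.272, unadjusted p = 0.0823 by edgeR's quasi-likelihood test). Irf1, the first transcription factor induced by interferon-gamma, likewise overlapped, at 282, 165 and 142 CPM and at 185, 111 and 121 CPM (log2 fold change -0.50, SE 0.255).

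MHC class I presentation genes had log2 fold changes below 0 in 17 of 17 tested members, beside 8542 of all 17834 tested genes. Only 4 were lower at an unadjusted p under 0.05 (2.21% of all tested genes) and the median was -0.29. Nlrc5, the transactivator of class I genes, was at 274, 162 and 169.9 CPM with vehicle and at 125, 116 and 114 CPM with ruxolitinib (log2 fold change -0.77, SE 0.218; -0.50 without A1). The nonclassical class I gene H2-T23 was at 388, 279 and 307 CPM and at 221, 228 and 237 CPM (log2 fold change -0.50, SE 0.151). Both genes were without overlap, and the count of lower members was 2 without A1, A16 or A17 and 7 without A3. MHC class II genes showed 0 of 11 lower and 0 higher at that p, with a median of -0.24.

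The start sites of the interferon genes were searched for the core of the interferon-stimulated response element, written GAAANNGAA, and for the core of the STAT site, written TTCNNNGAA, on both strands. Windows of RefSeq promoters on GRCm38.p6, from 250 bases before to 50 after each start, were found for 35 of the 46 type I genes and for 22 of the 33 interferon-gamma genes. GAAANNGAA stood in 26 of 45 windows of the type I genes (57.8%) and in 15 of 27 windows of the interferon-gamma genes (55.6%), beside 8.56% of all 32851 windows and 7.56% of the windows of tested genes. TTCNNNGAA stood in 8 of 45 (17.8%) and 12 of 27 (44.4%) windows, beside 8.30% of all windows, and a match of one motif overlapped a match of the other in 2 windows of each list. Related genes share promoter sequence, so these windows are not independent. Among STAT target genes 6 of 23 windows held TTCNNNGAA (26.1%) and 1 held GAAANNGAA (4.35%). Of the 12 lower genes of smallest p, 7 had an entry, and of their 8 windows 2 held GAAANNGAA and 3 held TTCNNNGAA. The windows of Irf7, Irf9, Xaf1 and Il6 held neither run of letters, and Rtp4, Usp18, Tcrg-C1, Gm4070 and Iigp1 had no entry.

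Examples with a match, of which the last 150 bases before the start site are given 5′ to 3′ on the gene's strand with the matches in capitals, show how the letters are arranged in genes that were lower in all ruxolitinib libraries. In Ifit1 and Oas3, both type I genes, a pair of GAAANNGAA matches overlap, with first bases 109 and 103 before the start in Ifit1, where they lie on the opposite strand with a further match at 84, and 75 and 69 before the start in Oas3. In Tgtp2 and Igtp a match of TTCNNNGAA stands just ahead of GAAANNGAA, in Irgm1 there are 2 overlapping matches of GAAANNGAA, and Serpina3g has TTCNNNGAA alone, from 33 bases before the start.
Ifit1, chr19:34640739-34640888, plus strand: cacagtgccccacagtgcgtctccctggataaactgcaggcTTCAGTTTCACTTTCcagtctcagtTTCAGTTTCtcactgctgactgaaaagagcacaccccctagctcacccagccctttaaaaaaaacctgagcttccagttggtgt
Oas3, chr5:120777660-120777809, minus strand: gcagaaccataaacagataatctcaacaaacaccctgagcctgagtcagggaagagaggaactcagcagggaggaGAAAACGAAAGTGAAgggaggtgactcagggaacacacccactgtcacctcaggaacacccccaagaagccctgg
Tgtp2, chr11:49064213-49064362, minus strand: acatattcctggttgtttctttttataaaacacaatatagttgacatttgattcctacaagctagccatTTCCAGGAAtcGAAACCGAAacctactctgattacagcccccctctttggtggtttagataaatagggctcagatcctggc
Igtp, chr11:58199406-58199555, plus strand: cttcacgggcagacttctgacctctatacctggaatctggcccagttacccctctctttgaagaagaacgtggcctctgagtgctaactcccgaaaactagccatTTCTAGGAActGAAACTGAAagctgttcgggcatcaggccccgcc
Irgm1, chr11:48871421-48871570, minus strand: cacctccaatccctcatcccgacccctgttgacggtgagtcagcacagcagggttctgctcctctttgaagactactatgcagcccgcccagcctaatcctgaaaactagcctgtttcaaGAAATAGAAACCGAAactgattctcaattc
Serpina3g, chr12:104235997-104236146, plus strand: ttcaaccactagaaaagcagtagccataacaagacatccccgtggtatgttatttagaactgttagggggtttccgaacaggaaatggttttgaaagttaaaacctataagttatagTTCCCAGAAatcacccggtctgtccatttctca

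**Figure D2:**
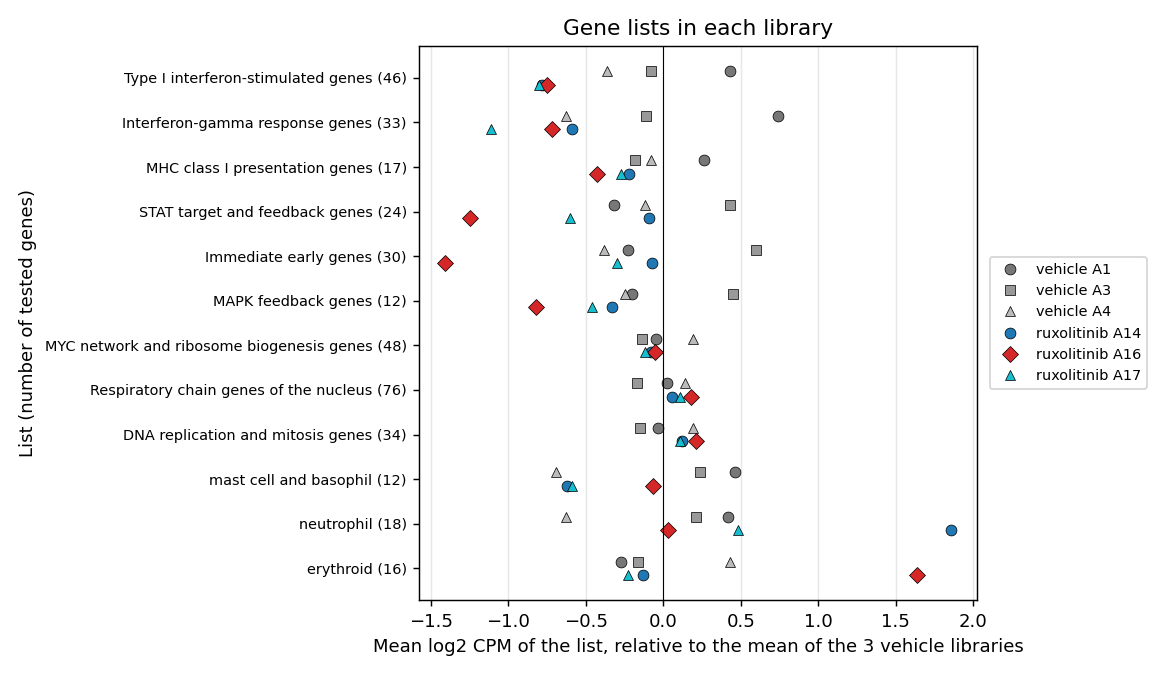
Mean log2 CPM of 12 gene lists in each of the 6 libraries, relative to the mean of the 3 vehicle libraries (grey, upper row of each list) with ruxolitinib A14, A16 and A17 in colour (lower row). The 3 ruxolitinib libraries lie together at -0.80 to -0.75 for type I interferon-stimulated genes, while A16 alone lies at -1.41 for immediate early genes and at 1.64 for erythroid markers.

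The kinases and transcription factors of the JAK-STAT pathway itself mostly differed little from vehicle in these libraries. Of 19 tested kinases, STATs and phosphatases, 0 were higher at an unadjusted p under 0.05, and the median was -0.019. Jak2 was at 21.8, 20.1 and 24.1 CPM with vehicle and at 22.6, 21.1 and 20.8 CPM with ruxolitinib (log2 fold change -0.035, SE 0.162). The log2 fold change of Stat5a was -0.064 (SE 0.208), and Stat5b was at 184, 254 and 249 CPM with vehicle and at 265, 155 and 261 CPM with ruxolitinib (log2 fold change -0.013, SE 0.268). Stat3, at 304, 442 and 327 CPM and at 327, 160.3 and 321 CPM, was low in A16 alone. The sign of the small changes of Jak2, Stat5a and Stat5b turned with the library left out.

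STAT target and feedback genes were lower in 8 of 24 tested members at an unadjusted p under 0.05 (2.21% of all tested genes) with 0 higher and 0 called, and the median was -0.51. Without A16 the count was 6 and the median -0.41. A pair of other libraries moved that median further, to -0.84 without A14 and to -0.30 without A3. List means relative to vehicle were -0.32, 0.43 and -0.12 in A1, A3 and A4 and -0.089, -1.25 and -0.60 in A14, A16 and A17, so ruxolitinib A14 lay inside the vehicle range.

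Cish, the STAT5-induced inhibitor of cytokine receptors, was at 17.7, 73.4 and 13.9 CPM with vehicle and at 12.9, 12.6 and 7.91 CPM with ruxolitinib. Its groups did not overlap, but A3 was far above the rest (log2 fold change -1.66, SE 0.517, unadjusted p = 0.00661 by edgeR's quasi-likelihood test; -0.51 without A3), and 11.5% of its exon bases lie under genes of the opposite strand. Pim1, a survival kinase induced by STAT5, was at 19.1, 15.0 and 16 CPM and at 13.9, 5.34 and 9.51 CPM (log2 fold change -0.80, SE 0.264; -0.51 without A16). The related kinase Pim2 was at 38.7, 116 and 42.4 CPM and at 24.1, 6.15 and 16.7 CPM (log2 fold change -2.07, SE 0.671; -1.37 without A3, where its unadjusted p was 0.0606 by edgeR's quasi-likelihood test). A16 was the lowest library in both kinase genes. Csf2rb2, a beta chain of the IL-3 receptor, was at 33.3, 18.3 and 45.2 CPM and at 11.9, 5.38 and 8.06 CPM (log2 fold change -1.93, SE 0.463), and shares 18.9% of its 50-base stretches with other genes. Csf2rb, the chain shared with the GM-CSF and IL-5 receptors, was at 168, 166 and 234 CPM and at 126, 75.6 and 91.5 CPM (log2 fold change -0.95, SE 0.251). Ccnd2, the D cyclin of early progenitors, was tightly grouped at 437, 409 and 414 CPM and at 294, 344 and 297 CPM (log2 fold change -0.43, SE 0.110). Osm, an inflammatory cytokine of the IL-6 family, was at 142, 128 and 161 CPM and at 113, 56.4 and 84.8 CPM (log2 fold change -0.76, SE 0.265; -0.54 without A16).

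Other feedback genes overlapped between the groups. Socs2 was at 5.41, 85.4 and 7.89 CPM with vehicle and at 18.9, 4.79 and 3.73 CPM with ruxolitinib, and its log2 fold change of -1.85 (SE 0.967) became 0.46 without A3. Socs3 was at 17.8, 54.7 and 21.9 CPM and at 39.6, 3.25 and 25 CPM (log2 fold change -0.48, SE 0.755; 0.038 without A16). The survival gene Bcl2l1 was at 65.4, 71.6 and 49.1 CPM and at 49.6, 57.8 and 50.7 CPM (log2 fold change -0.24, SE 0.188). In these 3 genes the difference was smaller than the spread between libraries.

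**Figure D3:**
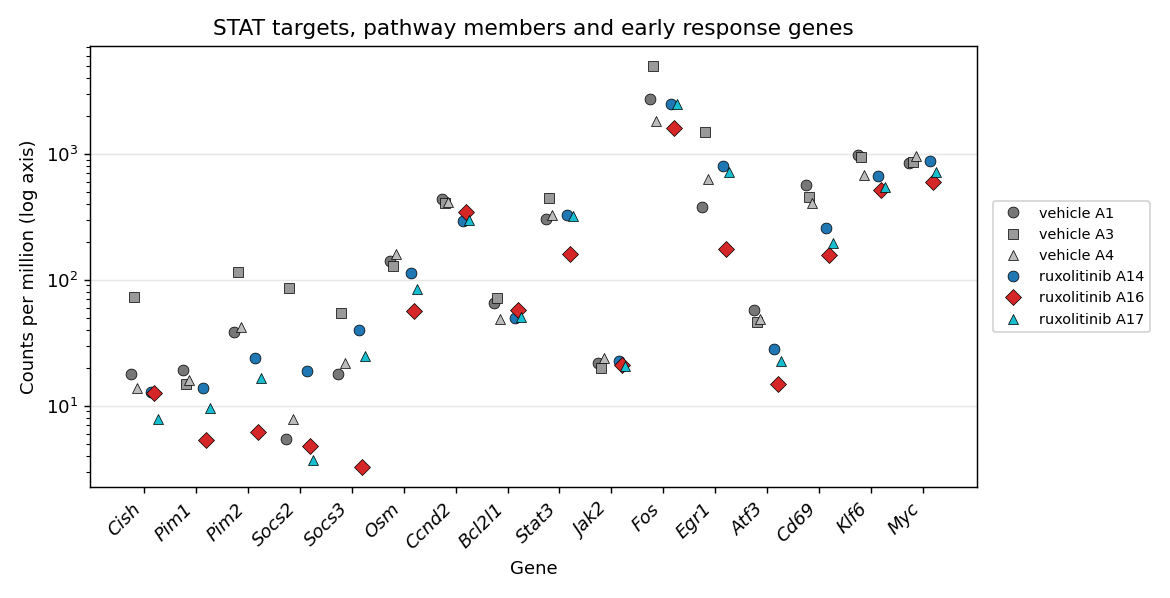
CPM (log axis) of STAT targets, pathway members and early response genes, 1 point per library with vehicle in grey and ruxolitinib in colour. Cish, Pim1, Pim2, Osm, Ccnd2, Atf3, Cd69 and Klf6 do not overlap between the groups, while A16 (red diamond) lies lowest in Socs3 (3.25 CPM) and Egr1 (174 CPM), where A14 and A17 lie inside the vehicle range.

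Immediate early genes, which growth factor and stress signals switch on within minutes, were lower in 7 of 30 tested members at an unadjusted p under 0.05 (2.21% of all tested genes), with 0 higher, 0 called and a median of -0.54. Without A16 there were 5 and the median was -0.24, and without vehicle A3 there were 4 and the median was -0.13. Cd69, an activation antigen that retains cells in tissue, was at 561, 452 and 403 CPM with vehicle and at 256, 156 and 194 CPM with ruxolitinib (log2 fold change -1.22, SE 0.252; -1.06 without A16). Atf3, a stress-induced transcription factor, was at 57.6, 46.6 and 48.6 CPM and at 28.4, 14.8 and 22.6 CPM (log2 fold change -1.21, SE 0.304; -0.99 without A16). Klf6, a Kruppel-like factor, was at 970, 945 and 675 CPM and at 666, 518 and 547 CPM (log2 fold change -0.58, SE 0.177), and A14 was only just below A4. Ier3 was at 278, 322 and 242 CPM and at 199, 158 and 183 CPM (log2 fold change -0.64, SE 0.153). The groups did not overlap in these 4 genes, and A16 was the lowest library in each.

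In Fos, Jun and Egr1 the groups overlapped, while Fosb (log2 fold change -1.09) and Egr2, of the same families, were among the lower members. Fos was at 2712, 4975 and 1820 CPM with vehicle and at 2500, 1589 and 2494 CPM with ruxolitinib (log2 fold change -0.53, SE 0.417). Jun was at 285, 891 and 623 CPM and at 1024, 152 and 792 CPM, so that A14 was the highest and A16 the lowest of all 6 libraries. Egr1 was at 375, 1485 and 631 CPM and at 799, 174 and 711 CPM (log2 fold change -0.56, SE 0.634; -0.14 without A16). The list mean relative to vehicle was -0.23, 0.60 and -0.38 in A1, A3 and A4 and -0.072, -1.41 and -0.30 in A14, A16 and A17, which places the low value in A16 alone.

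MAPK feedback genes were lower in 3 of 12 members (Spred1, Etv4 and Phlda1) at an unadjusted p under 0.05, which 2.21% of all tested genes passed, with a median of -0.62 that was -0.62 without A16 and -0.14 without A3. Spred1, an inhibitor of RAS signalling, was at 16.9, 12.9 and 14.7 CPM with vehicle and at 9.09, 11.5 and 9.14 CPM with ruxolitinib (log2 fold change -0.58, SE 0.179). Among NF-kB genes, 3 of 22 were lower at that p (2.21% of all tested genes). Tnfaip3, the ubiquitin-editing inhibitor of NF-kB, was at 132, 163 and 223 CPM and at 113, 36.2 and 60.0 CPM (log2 fold change -1.31, SE 0.353). Cxcl2, a neutrophil-attracting chemokine, was at 92.1, 59.1 and 43.0 CPM and at 36.6, 11.7 and 22.5 CPM (log2 fold change -1.46, SE 0.468). A16 was the lowest library in both, and the values without A16 were -1.0 and -1.13.

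Growth and metabolic lists held few or no genes past an unadjusted p under 0.05. Over all tested genes 2.21% were lower and 2.34% were higher at that p. Myc was at 838, 861 and 964 CPM with vehicle and at 874, 602 and 716 CPM with ruxolitinib (log2 fold change -0.28, SE 0.297), and 0 of 48 MYC network and ribosome biogenesis genes were lower or higher, with a median of -0.074. Nuclear genes of the respiratory chain numbered 0 of 76 in either direction. Of their values 70 of 76 lay above 0, beside 9283 of all 17834 tested genes, and 9 were higher without overlap (3.67% of all tested genes). Their median of 0.12 was 0.052 without A16 and 0.046 without A3. DNA replication and mitosis genes had 2 of 34 higher (Plk1 and Tk1), 29 of 34 values above 0 and a median of 0.17 (0.054 without A16), and Plk1, the mitotic kinase, stood out in A16, at 257 CPM beside 154 and 150.4 CPM in A14 and A17 (log2 fold change 0.51; 0.22 without A16). Among glycolysis genes 1 of 22 was lower and 1 higher, among TCA cycle and 2HG enzymes 1 of 27 was lower, among cholesterol synthesis genes 1 of 24 was higher, and among ATF4 amino acid response genes 2 of 21 were lower. Idh2, the gene whose R140Q form the cells carry, was at 212, 368 and 461 CPM with vehicle and at 480.2, 124 and 425 CPM with ruxolitinib, with the low value in A16 (log2 fold change -0.018, SE 0.593; 0.38 without A16). Of cell survival and stress lists, 3 of 18 p53 target genes, 2 of 11 CDK inhibitors and D cyclins, 2 of 13 glucocorticoid-induced genes, 1 of 15 BCL2 family genes and 1 of 14 heat shock genes were lower at that p (2.21% of all tested genes), and none of these lists had a higher member. Cytokine receptors that signal through JAKs were lower in 2 of 23 and higher in 1, while 0 of 10 mitochondrial genes, 0 of 16 RNA processing genes and 0 of 6 sex-linked genes passed in either direction. Some genes are members of several lists, so the counts of different lists are not independent. Cdkn1a is in the STAT target, p53 and CDK inhibitor lists, and Pmaip1 is in the p53 and BCL2 lists. Csf2rb and Csf2rb2 are in the receptor list and the STAT target list.

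Mast cell and basophil markers were lower in 4 of 12 members at an unadjusted p under 0.05 (2.21% of all tested genes), with a median of -0.87 (-1.24 without A16) and a summed level of 759 to 1207 CPM with vehicle and 446 to 539 CPM with ruxolitinib. Cpa3, the mast cell carboxypeptidase, was at 306, 233 and 444 CPM with vehicle and at 124, 184 and 145 CPM with ruxolitinib (log2 fold change -1.11, SE 0.250). Fcer1a, the alpha chain of the IgE receptor, was at 63.1, 49.3 and 168 CPM and at 33.7, 29.0 and 23.4 CPM (log2 fold change -1.71, SE 0.386; -0.97 without A4). Both genes were without overlap, while the basophil protease Mcpt8 was at 50.9, 84.3 and 49.7 CPM and at 51.4, 29.4 and 41.8 CPM. The protease Tpsb2 varied between libraries without regard to group, from 0 CPM in A4 to 39.2 CPM in A1 and 35.1 CPM in A16.

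Neutrophil markers had log2 fold changes above 0 in 18 of 18 members, beside 9283 of all 17834 tested genes. Of these markers 2 (Elane and Mpo) were higher at an unadjusted p under 0.05 (2.34% of all tested genes), and the median was 0.84. Without A14 the median was 0.13 and 0 members passed, and without A16 it was 1.17 and 4 passed. Mpo was at 5191, 7870 and 6948 CPM with vehicle and at 12141, 8096 and 9117 CPM with ruxolitinib (log2 fold change 0.55, SE 0.221), and 15% of its exon bases lie under a gene of the opposite strand. The late granule gene Ltf was at 33.3, 11.1 and 18.5 CPM and at 123, 25.8 and 17.2 CPM, high in A14 alone. Summed, the list was at 8261 to 13260 CPM with vehicle and at 12545 to 19999 CPM with ruxolitinib, with A14 the highest. Erythroid markers were higher in 3 of 16 members at that p, all 3 of them globin genes, and the count was 0 without A16 or A3, 8 without A14 and 7 without A17. Their summed level was 7888 CPM in A16 and 2212 to 3556 CPM in the other 5 libraries. Plasma cell markers were higher in 2 of 10 members, and Ighm, the immunoglobulin mu chain, was at 168, 57.7 and 153 CPM with vehicle and at 323, 673 and 176 CPM with ruxolitinib (log2 fold change 1.63; 0.99 without A16). Of the other marker lists at that p, monocyte, macrophage and dendritic cell markers were higher in 2 of 17, stroma and endothelium markers in 1 of 11 and B lineage markers in 0 of 12, while megakaryocyte markers were lower in 1 of 15 and LSK gate and stem cell markers in 2 of 25. No list had a marker at 0 in all libraries of a group. The part of these markers in the differences above was not tested.

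Of the genes with higher values with ruxolitinib, none was called by edgeR's quasi-likelihood test, which gave 418 an unadjusted p under 0.05, beside 6 called by DESeq2 and 0 by limma voom. The smallest p belonged to Mgl2, a galactose-type lectin of macrophages and dendritic cells, at 6.50, 5.26 and 2.49 CPM with vehicle and at 23.1, 21.4 and 13.6 CPM with ruxolitinib (log2 fold change 2.02, SE 0.361, adjusted p = 0.115 by edgeR's quasi-likelihood test). Mgl2 shares 13.1% of its 50-base stretches with other genes, most often Clec10a. Tmem26 was at 1.02, 0.479 and 0.474 CPM and at 4.14, 3.25 and 1.75 CPM (log2 fold change 2.21, SE 0.506). Cep164, a protein of the ciliary base, was at 15.0, 13.1 and 15.0 CPM and at 27.7, 28.3 and 21.1 CPM (log2 fold change 0.84, SE 0.209). These were separated between the groups with A16 beside A14 and A17. Dmkn was at 8.80, 10.4 and 7.62 CPM and at 19.5, 12.3 and 17.3 CPM (log2 fold change 0.87, SE 0.242). The other 8 of the 12 higher genes of smallest p, among them Gm13986, Dlg5, Gm53, Onecut2, Pate2 and Fat2, included 6 with no library of either group above 1.24 CPM, and Fat2 had 0 counts in all vehicle libraries, so no fold change is given for it. Gm26624 was at 0.947 to 1.34 CPM with vehicle and at 2.17 to 3.84 CPM with ruxolitinib, and Ttc39a was at 1.03 to 2.46 CPM and at 3.06 to 7.65 CPM.

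Combined treatment against AG221 measured ruxolitinib again in 6 libraries whose levels the comparison above does not use, though both comparisons share 1 estimate of spread. That comparison called 2546 genes lower (14.3%) and 3371 higher (18.9%), and its libraries were named A for AG221 and B for combined treatment, so that any difference between the A and B libraries cannot be told apart from the drug. All 3 called genes were lower there too: Irf7 with a log2 fold change of -1.16 (adjusted p = 0.00374 by edgeR's quasi-likelihood test), Rtp4 with -1.51 (adjusted p = 0.00414) and Tcrg-C1 with -3.40 (adjusted p = 0.000694). Irf7 was at 17.2, 19.9 and 25.5 CPM in the AG221 libraries and at 10.6, 8.33 and 9.02 CPM in the combined libraries. The groups did not overlap, as was the case without AG221.

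Of the 12 lower genes of smallest p, 11 had the same direction in that second comparison and 10 were called lower, the exceptions being Usp18 (log2 fold change -0.55, adjusted p = 0.0574) and Il6 (0.28, adjusted p = 0.517, both by edgeR's quasi-likelihood test). The list of type I interferon-stimulated genes had 23 of 46 members called lower and 2 called higher there with a median of -0.71. Interferon-gamma response genes had 21 of 33 called lower and 0 higher with a median of -1.30. Over all tested genes 14.3% were called lower and 18.9% higher in that comparison. Serpina3g was at 1278, 960 and 1384 CPM with AG221 and at 218, 468 and 452 CPM with combined treatment (log2 fold change -1.67, SE 0.328). Of the 12 higher genes, 6 had the same direction, 0 were called higher and 2 (Mgl2, -1.94, and Dmkn, -2.56) were called lower. Over all genes with an unadjusted p under 0.05, 265 of 395 lower genes (67.1%) and 241 of 418 higher genes (57.7%) kept their direction, beside 44.6% of all genes below 0 and 53.9% of all genes above 0, so the share of higher genes was near that of all genes. Of the 395 lower genes 126 (31.9%) were called in the same direction and 20 in the opposite one. Over all 8542 genes below 0 these counts were 1263 (14.8%) and 1735. Of the 418 higher genes 23 (5.5%) were called in the same direction and 49 in the opposite one. Over all 9283 genes above 0 these counts were 1635 (17.6%) and 1283.

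**Figure D4:**
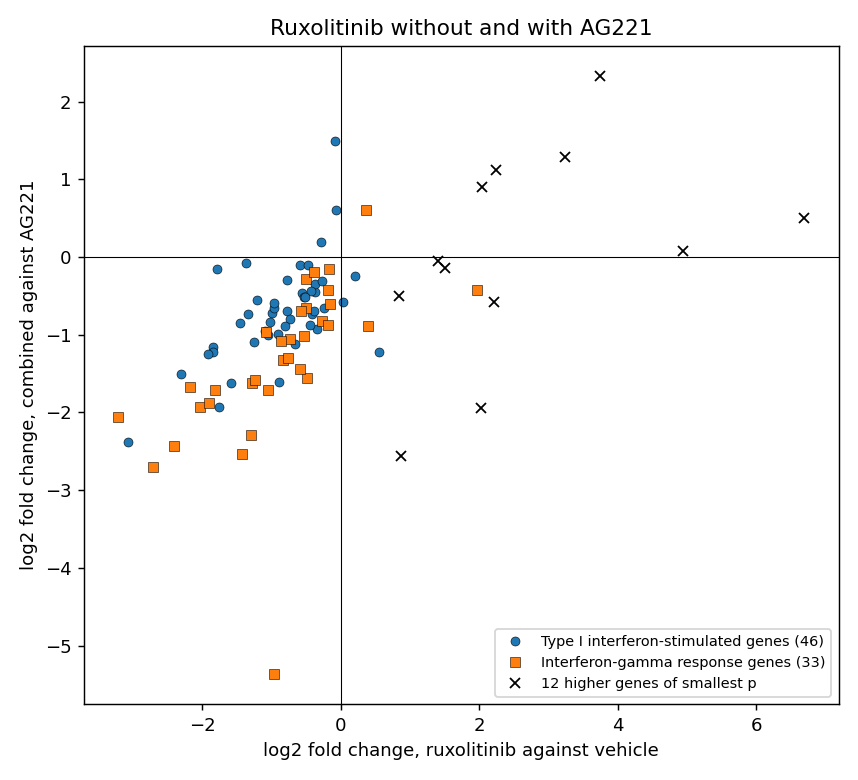
Log2 fold change of ruxolitinib against vehicle (horizontal) and of combined treatment against AG221 (vertical), 1 point per gene, for 46 type I interferon-stimulated genes (circles), 33 interferon-gamma response genes (squares) and the 12 higher genes of smallest p (crosses). Most interferon genes lie below 0 on both axes, with 43 of 46 and 32 of 33 below 0 on the vertical axis, while the crosses scatter about 0 there (6 of 12 above). The median over all tested genes on the vertical axis was 0.11.

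Early response genes differed between the comparisons. Of 30 immediate early genes 16 were called lower for combined treatment against AG221 (median -1.97), beside 14.3% of all tested genes. There 12 of 18 neutrophil markers were called lower too (median -2.09), and the part of those cells was not tested. Klf6 differed by -2.97 on the log2 scale between combined treatment and AG221 against -0.58 between ruxolitinib and vehicle, and the difference of these was -2.39 (SE 0.253, adjusted p = 0.00142 by edgeR's quasi-likelihood test). For Fos the values were -4.32 and -0.53 (difference -3.79, adjusted p = 0.0114), and for Cd69 they were -3.29 and -1.22 (difference -2.07, adjusted p = 0.0163). The test of a difference called 1502 genes, and 305 without A16. Irf7, Rtp4 and Tcrg-C1 did not pass the test of a difference, with adjusted p of 0.158, 0.211 and 0.813 by edgeR's quasi-likelihood test.

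Levels in the WT libraries, which carry the letter B and are shown only side by side, differed between interferon genes. Irf7 was at 32.3, 36.5 and 38.8 CPM and Rtp4 at 44.9, 55.4 and 63.9 CPM in WT cells, so the ruxolitinib libraries lay far under WT and the vehicle libraries at or under it. Serpina3g was at 279.9, 226 and 322 CPM and Tcrg-C1 at 2.39, 3.47 and 3.12 CPM in WT cells, levels close to those with ruxolitinib and under those with vehicle. The treatment of the WT mice was not given in the sources used here. The list of Xist, Tsix and Y-linked genes stood at -5.46 to -5.13 in WT libraries and at -0.34 to 0.64 in vehicle and ruxolitinib libraries, relative to the vehicle mean, so WT also differs from them in sex-linked genes. No test of ruxolitinib against WT was made.

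A16 stood apart from A14 and A17 in many genes. Among 9259 genes with a mean of at least 10 CPM, 1365 (14.7%) differed in A16 by over 1 on the log2 scale from the mean of A14 and A17, and 1259 of them were lower in A16. The same count was 428 for A14, 84 for A17 and 279 to 609 for the vehicle libraries. Socs3 (3.25 CPM beside 39.6 and 25), Hist1h2ae (4.4 beside 49.3 and 35.2), Ltb4r1 (4.61 beside 38.1 and 23.9) and Upf1 (3.38 beside 25.9 and 17.6) were among the 8 genes furthest below A14 and A17. Hbb-bs, the adult beta globin, was at 609 CPM beside 55.4 and 53.2, and the immunoglobulin light chain gene Iglc3 at 116 CPM beside 2.03 and 0.0373. Copies share sequence, with 43.2% of the 50-base stretches of Hist1h2ae found in other genes, most often Hist1h2ad. For Hbb-bs 53.2% were also found in other genes, most often Hbb-bt. Genes of high GC content were lower in A16, with a median log2 difference from A14 and A17 of -0.292 in the highest of 5 GC bins and 0.139 in the lowest, and the same turn, -0.472 and 0.129, was seen in AG221 library A8. The part of GC content in the low genes of A16 was not tested. For the interferon lists, counts and medians were about as large without A16, as given above.

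**Figure D5:**
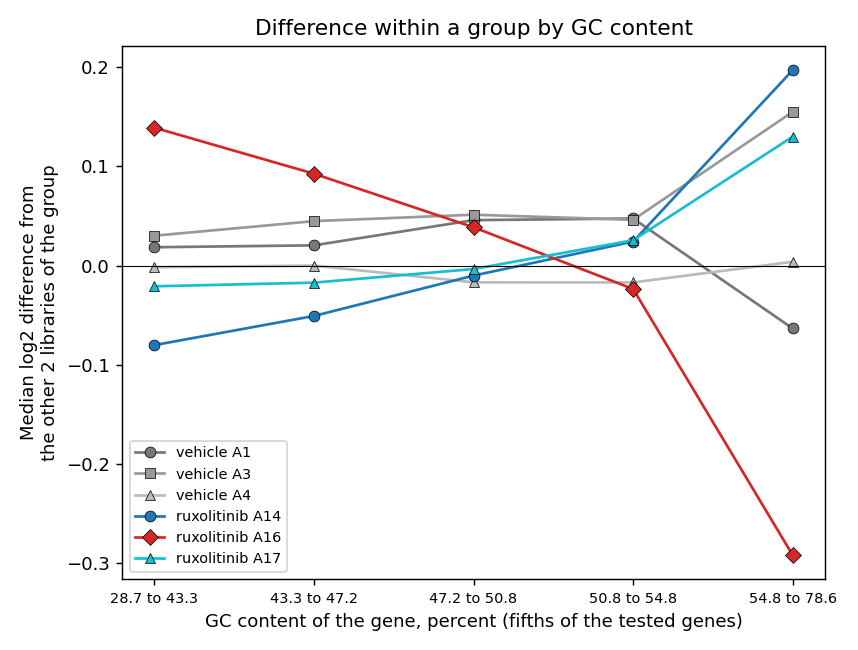
Median log2 difference of each library from the other 2 of its group (vertical) in 5 equal bins of the tested genes by GC content (horizontal, percent), for vehicle A1, A3 and A4 (grey) and ruxolitinib A14, A16 and A17 (colour). A16 falls from 0.139 in the lowest bin to -0.292 in the highest, while A14 and A17 rise to 0.197 and 0.13.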

How the data were processed

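RNA-seq of 15 libraries of sorted LSK cells, 3 in each of 5 groups, was used. Per the labels and the methods of the study, the authors aligned paired-end reads to mm10 with STAR 2.5.1a and deposited raw counts per Ensembl gene; the Ensembl release and the strand setting were not given in the sources used here. The authors' table normalized with DESeq2 1.6.3 holds the same libraries and was not used. Library totals, and the CPM that 3 counts stand for, are given with the results, and intervals of counting error were not needed.

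Genes were filtered with filterByExpr (17834 of 45232 IDs kept), scaled by TMM and fitted with edgeR 4.0.16 (R 4.3.3) by quasi-likelihood with 1 coefficient per group over all 15 libraries, so that all groups shared the estimate of spread (common biological coefficient of variation 0.313). Adjusted p-values are Benjamini-Hochberg over all tested genes, and called means an adjusted p under 0.05. Log2 CPM, used for distances and list means, carry a prior count of 2. Fold changes come from the fit, to which that prior count was not applied. CPM are scaled by TMM library sizes. Alternatives were RLE and upper quartile scaling, 2 other filters, a fit of the 6 libraries alone, each library left out, limma 3.58.1 voom with quality weights, DESeq2 1.42.0, a looser threshold and, added after the data were seen, GC content offsets. The fit was also run on simulated counts with independent noise per gene and library. That run does not cover a library that departs in many genes, as A16 did.

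Gene names, positions, exon overlap and shared 50-base stretches came from GENCODE annotation of GRCm38 (44585 IDs matched a symbol) and promoters from RefSeq. The rule for naming took each called gene and the 12 genes of smallest p in each direction among genes whose groups did not overlap. It also took list members at an unadjusted p under 0.05 and a preset set of pathway genes. To these it added the 8 genes that set A16 apart in each direction. Of the list members, preset genes and A16 genes the text names only a part. Cd3e, Nkg7, Mcpt8, Ltf, Jun, Ifit2, Isg20 and Ifit1bl1 lie outside that rule and were chosen after their values were seen. The comparison, the rule and the lists were chosen with earlier results of these data known. Replicate libraries differed from each other by more than sampling noise, so none was counted as a duplicate. The values of 1 member of the pathway lists are not reported here.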

Additional observations from a re-analysis of the deposited data

Results flagged for a closer look

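The change with ruxolitinib was measured against vehicle and, with AG221 present in both arms, as combined treatment against AG221. For 29 named genes the difference between these changes (the second minus the first, log2) passed edgeR's quasi-likelihood test with adjusted p from 0.00136 to 0.0493. The letters A and B of the libraries cannot be told apart from the second change, and A16 weighs on the test, which called 1502 genes with it and 305 without it.

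Of the named immediate early genes, those that passed had the more negative value with AG221, with differences of Atf3 -4.97, Ptgs2 -4.46, Fosb -3.61, Fos -3.79, Klf6 -2.39, Cd69 -2.07 and Ier3 -1.44. The same was true of Cxcl2 -6.46, Osm -1.84, Ccrl2 -1.37, Pmaip1 -2.21 and Hspa5 -1.28. Genes with a log2 fold change above 0 with ruxolitinib, where none was called, and below 0 for combined treatment against AG221 had differences of Elane -2.90, Mpo -2.17, Ly6c2 -3.07, Adgre1 -2.36 and Hk3 -0.92. Globin genes had differences of Hbb-bs -4.35, Hba-a2 -4.10 and Hba-a1 -3.99, and their level with ruxolitinib was high in A16 alone. Among the genes of smallest p that were higher with ruxolitinib, the differences were Mgl2 -3.96, Dmkn -3.43, Tmem26 -2.79 and Cep164 -1.34. The differences above 0 were Socs1 4.58, Il6 2.26, Vldlr 1.97, Prdm16 1.60 and Stat5b 1.39.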

How the results depend on the processing

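Of 134 genes followed through the alternatives, 124 kept the sign of their log2 fold change in all of them. Of 1856 values 1761 stayed on the same side of the threshold, 13 lost a call, 60 gained one and 22 changed sign. Apart from the preset pathway genes, these genes were picked by their p in the same libraries, which favours a kept sign. Only 3 were called in the main fit, so staying on the same side mostly meant staying uncalled. Counts of called genes moved most. The 3 lower genes became 15 with no filter beyond 1 count, 0 in the fit of the 6 libraries alone, 29 with limma voom, 44 with DESeq2 and 7 at an adjusted p under 0.1, and 0 to 9 with 1 library left out (0 without A14, A16 or A17; 3 without A1 or A3; 9 without A4). In the 6-library fit 0 genes were also called higher. The 0 higher genes became 2 with no filter, 6 with DESeq2, and 0 to 1 with 1 library left out. Irf7 and Rtp4 lost the call in the 6-library fit and without A14, A16 or A17, as did Tcrg-C1, which also lost it without A3 (adjusted p = 0.0514 by edgeR's quasi-likelihood test). The 813 genes at an unadjusted p under 0.05 became 1462 with no filter and 469 with at least 10 counts in every library. The 5917 genes called for combined treatment against AG221 ranged from 3206 (without A8) to 8247 (without A9) with 1 library left out, with 3379 without A10 and 3471 without B24. The 1502 genes whose change differed with AG221 became 3124 with upper quartile scaling, 2485 with at least 10 counts, 3671 with DESeq2 and 305 without A16. The cause of these moves was not tested.

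Log2 fold changes that changed sign were small or rested on 1 library. With 1 library left out, Idh2 ranged from -0.34 to 0.38 (0.38 without A16, 0.026 without A3, 0.24 without A4), Stat5b from -0.16 to 0.20 (0.20 without A16, 0.068 without A3, 0.052 without A4), Stat5a from -0.16 to 0.053 (without A14), Jak2 from -0.096 to 0.035 (without A4), Socs2 from -2.95 to 0.46 (without A3), Socs3 from -1.15 to 0.19 (without A3; 0.038 without A16), Egr1 from -0.92 to 0.16 (without A3), Ly6a from -1.41 to 0.066 (without A1), Hbb-bs from -0.20 (without A16) to 2.41 and Hba-a1 from -0.19 (without A16) to 2.26. With limma voom, which gives A16 a low weight, the values were 0.42 for Idh2, 0.21 for Stat5b, 0.049 for Egr1, -0.024 for Hbb-bs and -0.042 for Hba-a1. Stat5b was 0.0027 with RLE scaling and 0.0021 with DESeq2. Of 489 list medians 433 moved by less than the standard deviation of the list mean over the 3 ruxolitinib libraries. That is a wide margin where A16 stood apart. For immediate early genes it was 0.715, so a move of the median from -0.54 to -0.24 without A16 did not count. Per the methods of the study, mice were matched on hematocrit, white cell count, donor chimerism and body weight before treatments were assigned at random. The labels do not give the matching group of a library, so no paired analysis was possible. With 3 libraries a group, a count of 0 in a vehicle library still allows up to 0.0957 to 0.118 CPM.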
